A study of Mus musculus with 3 samples.

Results

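The 33 glycolysis and hypoxia genes were followed through single cells of mouse cornea and limbus. They were chosen by gene symbol from the 32285 genes of the count tables, and all 33 had transcripts in each of the 3 libraries. The choice was made with earlier results of these data known. Shares of members set beside shares of all genes are therefore descriptions and not tests. Of these genes, 18 belong to glycolysis itself, from glucose uptake to lactate export, and 15 are other genes of the response to low oxygen. The libraries came from wild-type mice, 1 per group: an eye injury with nitrogen mustard (NM) followed by losartan, the same injury followed by saline, and no injury. Tissue of the front of the eye, freed of lens, retina, iris and most conjunctiva, was digested with warm enzymes before droplet capture. NM is an alkylating agent that blisters the ocular surface, and losartan is a drug that blocks the angiotensin II type 1 receptor. The labels give neither dose nor route, time after injury, sex or age. With 1 library per group there is no replicate and no test: intervals cover counting error alone, and the difference between mice cannot be told apart from that between treatments.

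Glycolysis splits glucose into pyruvate. The glucose transporters Slc2a1 and Slc2a3 bring glucose in, hexokinases (Hk1, Hk2) trap it, phosphofructokinases (Pfkl, Pfkp) commit it, and Ldha turns pyruvate into lactate, which leaves through the monocarboxylate transporter Slc16a3. The cornea has no vessels of its own, and its epithelium takes up oxygen from the tear film and is known for releasing lactate into the stroma. When oxygen is present, the prolyl hydroxylases Egln1 and Egln3 mark the transcription factor subunit Hif1a for destruction. When oxygen is short, Hif1a persists and binds hypoxia response elements near many glycolytic genes, Bnip3, Adm and Egln3 itself. Hif1a is also raised by inflammatory signals in myeloid cells, where glycolysis fuels neutrophils and activated macrophages.

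The core of a hypoxia response element reads ACGTG or GCGTG. Among the 30 members with an entry in the RefSeq promoter table (build GRCm38.p6), 28 (93.3%) held at least 1 of these cores on either strand in the 250 bases before a listed start. The share was 41.5% over all 27025 genes of the table, and 64.0% over the 7008 of them that reached 10 CPM (counts per 1000000 captured transcripts) in epithelial-like cells of any library. By single promoters it was 83.3% of 42 for the members and 38.6% of 32851 for the table. Counted with or without the other core, ACGTG stood in 52.4% of the members' promoters and 16.6% of all promoters, and GCGTG in 52.4% and 28.2%. Both cores contain a CG pair, and base composition was not matched, so these shares are descriptions and no match is shown to be a bound site.

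The promoters printed here belong to members that carry the results below in more than 1 class of cells. Each runs 5′ to 3′ on the strand of its gene and ends at the base before the start, with the core letters in capitals. Capitals reading CACGT or CACGC are a core on the opposite strand, and CACGTG holds a core on both strands.
Slc16a3: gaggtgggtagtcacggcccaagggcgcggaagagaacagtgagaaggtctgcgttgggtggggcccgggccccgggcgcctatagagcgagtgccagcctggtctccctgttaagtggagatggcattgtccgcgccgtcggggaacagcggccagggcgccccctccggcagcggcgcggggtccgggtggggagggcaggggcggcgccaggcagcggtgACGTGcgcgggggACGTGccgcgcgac
Pgk1: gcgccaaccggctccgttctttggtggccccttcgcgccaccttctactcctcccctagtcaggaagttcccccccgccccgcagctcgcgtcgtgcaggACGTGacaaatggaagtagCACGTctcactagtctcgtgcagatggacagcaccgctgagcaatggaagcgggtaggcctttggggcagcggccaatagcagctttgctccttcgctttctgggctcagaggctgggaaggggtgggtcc
Bnip3: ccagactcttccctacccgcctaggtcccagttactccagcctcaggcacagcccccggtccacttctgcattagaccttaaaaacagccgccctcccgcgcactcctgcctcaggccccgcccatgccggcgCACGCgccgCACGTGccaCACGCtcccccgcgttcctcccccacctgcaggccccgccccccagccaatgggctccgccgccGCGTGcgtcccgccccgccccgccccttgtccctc
Ddit4: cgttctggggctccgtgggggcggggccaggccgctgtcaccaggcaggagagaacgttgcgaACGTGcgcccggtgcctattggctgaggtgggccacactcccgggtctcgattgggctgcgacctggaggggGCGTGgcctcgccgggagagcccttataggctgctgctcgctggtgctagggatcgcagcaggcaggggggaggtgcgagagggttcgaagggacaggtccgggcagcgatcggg
P4ha2: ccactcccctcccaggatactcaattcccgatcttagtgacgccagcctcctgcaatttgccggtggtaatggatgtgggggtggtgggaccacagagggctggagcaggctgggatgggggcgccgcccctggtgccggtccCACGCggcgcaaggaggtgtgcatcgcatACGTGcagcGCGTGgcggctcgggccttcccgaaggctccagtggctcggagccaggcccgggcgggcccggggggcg
Egln3: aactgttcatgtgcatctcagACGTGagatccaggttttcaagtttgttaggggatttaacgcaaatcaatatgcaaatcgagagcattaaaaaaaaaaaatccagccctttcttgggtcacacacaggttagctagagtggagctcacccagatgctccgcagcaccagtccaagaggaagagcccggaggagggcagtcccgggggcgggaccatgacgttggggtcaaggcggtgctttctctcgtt
Adm: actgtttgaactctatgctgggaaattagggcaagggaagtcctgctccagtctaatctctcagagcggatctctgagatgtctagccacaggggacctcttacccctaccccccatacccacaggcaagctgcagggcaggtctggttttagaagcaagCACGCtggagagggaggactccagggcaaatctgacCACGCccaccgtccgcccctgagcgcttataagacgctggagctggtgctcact
In the order printed they lie at chr11:120948817-120949066 and chrX:106186850-106187099 on the plus strand, chr7:138909507-138909756 and chr10:59951771-59952020 on the minus strand, chr11:54100674-54100923 on the plus strand, chr12:54203875-54204124 on the minus strand and chr7:110627407-110627656 on the plus strand. Slc16a3 held 2 cores, their first bases 27 and 14 bases before the start, and Bnip3 held 5, which include the palindrome 108 bases before it. Pgk1, the ATP-forming phosphoglycerate kinase, held 2 cores of opposite orientation 150 and 131 bases before its start. Adm had no ACGTG in this window and 2 copies of GCGTG on the opposite strand. Egln3 had 1 core, 229 bases before its start.

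After filtering, 4919 cells of the NM losartan library, 5800 of NM saline and 11233 of the uninjured library remained, with medians of 6247, 4116 and 11564 UMIs (unique molecular identifiers, 1 per captured transcript) per cell. The files held 92753670, 83155441 and 177003042 UMIs in the same order. Cell barcodes shared between libraries numbered 7 for NM losartan with NM saline, 28 for NM losartan with uninjured and 21 for NM saline with uninjured. Epithelial-like cells made up 35.0% of kept cells in NM losartan (1723), 15.6% in NM saline (903) and 75.8% in the uninjured library (8519). Shallow clusters with 1041 and 974 uninjured cells were left unnamed and are not part of this class. All injured epithelial-like cells lay in 2 clusters, led by Sprr2f and by Kcnq5 and Col18a1, which held 1 uninjured cell between them. The other uninjured cells of the class lay in 7 clusters. All 14 epithelial markers were detected in the class, summing to 48608 CPM in NM losartan, 38553 CPM in NM saline and 49844 CPM in the uninjured library. Injured and uninjured epithelium thus shared no cluster to speak of, so a difference between them can be of cell state or of cell make-up. Levels below are CPM over all cells of a class in a library, and a member counts as higher or lower at 1.5-fold or more on the log2(CPM + 5) scale if it reached 10 CPM in at least 1 library of the pair. Changes of low genes are understated on that scale, so fold ratios of plain CPM with exact 95% intervals stand beside them. A gene that reached 10 CPM in only 1 library of a pair could not count as lower in that library.

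NM saline epithelium carried more transcript of most steps of glycolysis than uninjured epithelium. Of 31 measured members, 21 were higher and 4 lower, with a median log2 ratio of 1.81. Over all 8725 measured genes, 20.4% were higher and 16.6% lower, with a median of 0.05. Of the glycolytic members, 13 of 17 were higher and 2 lower (median 2.10), and of the other hypoxia members 8 of 14 were higher and 2 lower (median 0.89). These counts include Slc16a3, Pfkp, Bnip3, Ndufa4l2, Ddit4, Ankrd37 and P4ha2, which reached 10 CPM in NM saline only and so could not count as lower. Pfkfb3 reached it in the uninjured library only and could not count as higher. With the Sprr2f-led injured cluster alone, the median of the other hypoxia members was -0.12. The 18 glycolytic members together took 0.514% of epithelial UMIs in NM losartan and 0.712% in NM saline, against 0.174% in the uninjured library. For the 15 other hypoxia members the shares were 0.112%, 0.129% and 0.129%.

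The steps from aldolase to lactate dehydrogenase were all higher in NM saline epithelium. Gapdh, which oxidises glyceraldehyde phosphate, stood at 1504 CPM in NM losartan and 1795 CPM in NM saline, against 426 CPM in uninjured epithelium. Ldha was at 813 and 1247 CPM in the injured libraries and at 312 CPM in the uninjured one. Pgk1 reached 269 CPM in NM losartan, 463 CPM in NM saline and 81.5 CPM in the uninjured library. In each of these genes the order was NM saline, NM losartan, uninjured, with no overlap of the counting intervals. The NM saline to uninjured ratio was 4.21 (95% interval 4.17 to 4.26) for Gapdh, 3.99 (3.94 to 4.04) for Ldha and 5.68 (5.55 to 5.82) for Pgk1. Pgam1, Tpi1, Aldoa, Pkm and Eno1, the mutase, isomerase, aldolase, pyruvate kinase and enolase of the same stretch, had ratios between 4.44 for Pkm and 5.44 for Pgam1. In NM losartan, NM saline and uninjured epithelium Aldoa had 533, 769 and 159 CPM, Pgam1 468, 649 and 119 CPM, and Pkm 656, 788 and 177 CPM. Tpi1 had 267, 451 and 87.3 CPM and Eno1 181, 331 and 73.3 CPM, in the same order as the genes above. Eno1 has a near-identical retrogene copy, so its counts are uncertain to that extent.

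The lactate exporter Slc16a3 had 25.8 CPM in NM losartan epithelium and 74.1 CPM in NM saline, against 0.0973 CPM (13 UMIs) in uninjured epithelium. NM saline exceeded uninjured 761-fold (95% interval 444 to 1431), and the uninjured value rests on few transcripts. The phosphofructokinases were also far apart. Pfkp stood at 24.8, 39.3 and 4.64 CPM and Pfkl at 48.9, 79.4 and 13.2 CPM in NM losartan, NM saline and uninjured epithelium. Entry steps were mixed. Gpi1, the isomerase between hexokinase and phosphofructokinase, had 133, 180 and 63.0 CPM. Slc2a1 had 106 and 155 CPM in the injured libraries and 93.2 CPM in the uninjured one, a ratio of 1.66 (1.61 to 1.71) for NM saline. Hk2, at 64.3, 44.6 and 70.8 CPM, was 1.59-fold lower in NM saline (1.52 to 1.67) over the whole class. Its NM saline clusters (34.3 to 56.9 CPM) lay within the range of the uninjured clusters (28.4 to 142 CPM). Hk1 (15.5, 25.8 and 16.9 CPM) and Aldoc (21.6, 20.2 and 19.2 CPM) were within 1.5-fold on the log2(CPM + 5) scale. Pfkfb3, which makes the activator of phosphofructokinase, was lower in the injured epithelium as a whole, at 11.2 and 9.64 CPM against 22.2 CPM. Its NM saline clusters (6.94 to 12.9 CPM) overlapped the uninjured ones (9.99 to 44.3 CPM).

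Among the other hypoxia members, Ndufa4l2, Bnip3 and Ddit4 were far higher and Egln3 and Adm lower. Ndufa4l2, a protein of the respiratory chain that lowers its activity, had 17.0 CPM in NM losartan and 102 CPM in NM saline, against 0.247 CPM (33 UMIs) in uninjured epithelium. Bnip3, a mitophagy receptor, had 37.7 and 62.8 CPM against 1.33 CPM, and NM saline exceeded uninjured 47.1-fold (40.5 to 55.1). Ddit4, an inhibitor of mTORC1, had 71.2 and 105 CPM against 9.30 CPM, an 11.3-fold difference for NM saline (10.6 to 12.0). All 3 were under 10 CPM in uninjured epithelium and above it in both injured libraries. Ankrd37 (10.8 and 20.3 CPM against 1.27 CPM) and the collagen prolyl hydroxylase P4ha2 (15.8 and 30.9 CPM against 5.23 CPM) followed the same order. Egln3 went the opposite way, with 119 and 146 CPM against 450 CPM, 3.08-fold lower in NM saline (3.01 to 3.16). Adm, the vasodilator peptide adrenomedullin, had 104 CPM in NM losartan and 54.7 CPM in NM saline, against 193 CPM. Over the whole class it was 3.52-fold lower in NM saline (3.38 to 3.67). Its NM saline clusters (52.9 to 56.3 CPM) lay within the range of the uninjured clusters (13.1 to 339 CPM). Hif1a itself was nearly level, at 130, 108 and 111 CPM. Pdk1 (23.5, 29.7 and 28.7 CPM), Mxi1 (42.4, 59.0 and 45.5 CPM) and Bnip3l (206, 207 and 278 CPM) were within 1.5-fold, while Egln1 (78.3, 98.0 and 61.8 CPM), the mitochondrial gene Higd1a (213, 208 and 85.7 CPM) and P4ha1 (45, 55.9 and 22.3 CPM) were higher in NM saline. Car9, a carbonic anhydrase, did not reach 10 CPM, at 2.19, 7.04 and 0.165 CPM, and Slc2a3 stayed under 1 CPM in epithelium.

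**Figure D1:**
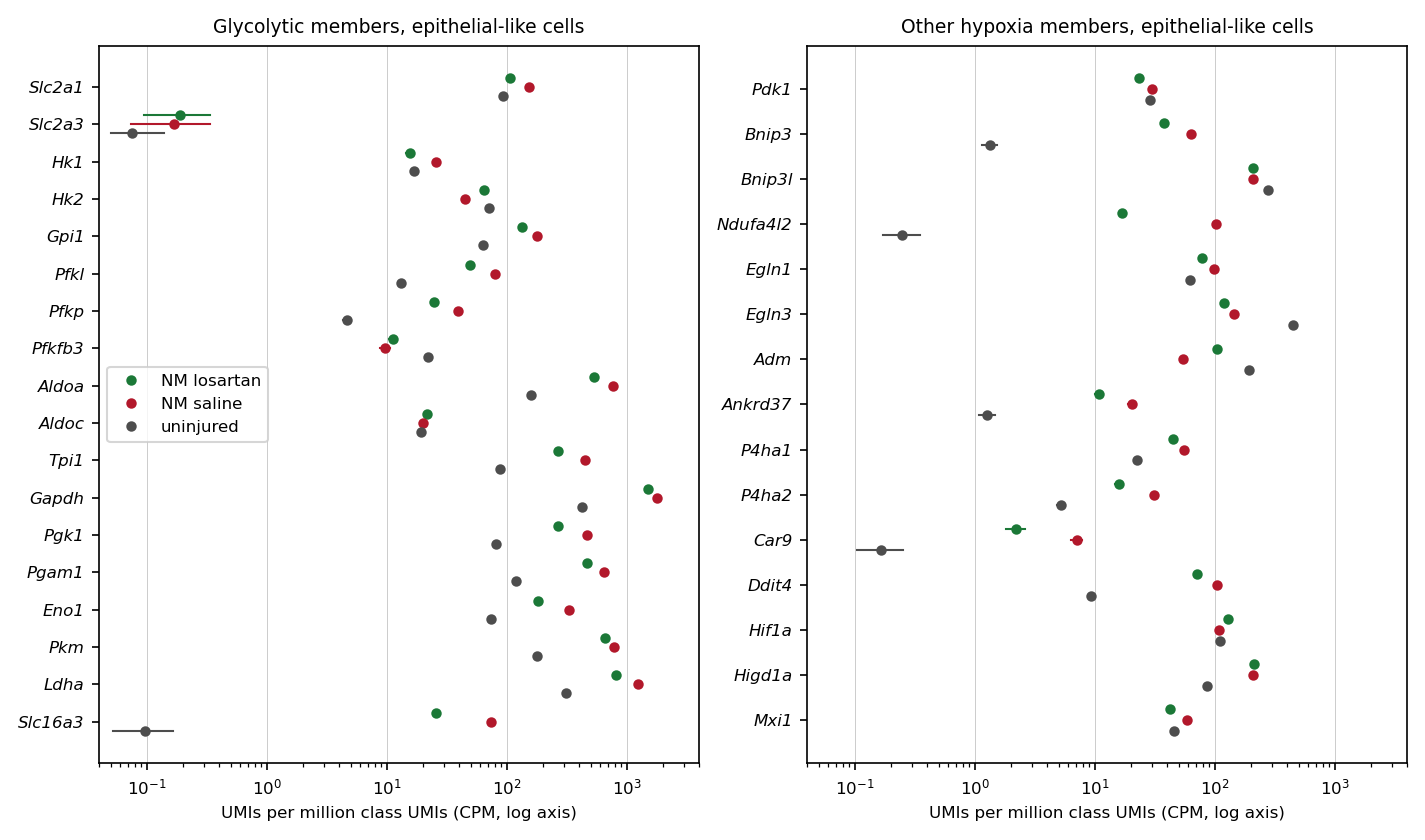
Level of each member in epithelial-like cells of the NM losartan, NM saline and uninjured libraries, as CPM on a log axis, with bars for the exact 95% counting interval (1 library per group). Most glycolytic members lie in the order NM saline, NM losartan, uninjured from high to low, as Pgk1 does at 463, 269 and 81.5 CPM, whereas Egln3 is highest in the uninjured library at 450 CPM.

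The injured classes were also set against each cluster of the uninjured epithelium. Against each of the 7 uninjured clusters in turn, between 19 and 24 of 30 or 31 measured members were higher in the NM saline class. In the NM losartan class between 17 and 23 of 31 were higher, and in either class between 1 and 5 were lower. The share over all genes was not computed for each cluster, so these counts have no background beside them and are not a result about the members. In NM saline, 18 of 31 measured members were above every uninjured cluster in both injured clusters, 12 of them glycolytic, where the share over all measured genes was 12.2%. In NM losartan it was 16 of 31, 11 of them glycolytic, beside 8.81% of all measured genes. Egln3 and Bnip3l were below every uninjured cluster in both injured clusters of both libraries. For Egln3 the injured clusters spanned 90.1 to 152 CPM in NM losartan and 136 to 154 CPM in NM saline, and the uninjured clusters 287 to 649 CPM. Of the 31 members, NM losartan against uninjured epithelium gave 19 higher and 3 lower (background 15.7% higher).

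Cells also differed in depth and in foreign transcripts between the libraries. Epithelial-like cells had medians of 32908 UMIs in NM losartan, 44050 in NM saline and 13960 in the uninjured library. With every cell thinned to the same depth the count of higher members stayed within the range given in the closing section. The 16 neutrophil markers summed to 469, 539 and 309 CPM in epithelial-like cells of the 3 libraries, and the median marker stood at 0.0427% and 0.155% of its level in Retnlg-led neutrophils of NM losartan and NM saline. The 15 macrophage markers summed to 1055, 1855 and 409 CPM there, with median markers at 0.0580% and 0.0925% of the macrophage level, and the part of such transcripts in the results was not tested.

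In the uninjured epithelium the members differed by layer. Superficial-like cells had 14 of 25 measured members lower than pooled basal-like cells and 3 higher. Over all measured genes 49.5% were lower and 14.4% higher in superficial-like cells, so the count of lower members is near that background and is not a result about the members. P4ha1, which hydroxylates collagen prolines, was at 0.890 CPM in superficial-like and 35.7 CPM in basal-like cells, 40.1-fold lower (26.4 to 64.1). Slc2a1 stood at 23.9 against 159 CPM, and Hif1a at 40.4 against 152 CPM. Gapdh, at 215 against 530 CPM, and Ldha, at 174 against 350 CPM, differed less. Egln3 ran the other way, with 556 CPM in superficial-like and 327 CPM in basal-like cells, and so did Aldoc and Mxi1. Wing-like cells lay between these ends for Slc2a1 (50.1 CPM) and P4ha1 (7.79 CPM) and had 627 CPM of Egln3.

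Limbal-like cells, the Gpha2-high cluster, differed from pooled basal-like cells in Pfkp, P4ha2 and Adm among others. Pfkp had 19.1 CPM in limbal-like and 4.34 CPM in basal-like cells, 4.40-fold higher (3.58 to 5.40). P4ha2 had 18.1 against 6.75 CPM, and Bnip3 had 6.41 CPM in limbal-like cells while the other uninjured clusters lay between 0.162 and 2.22 CPM. Adm was 12.3-fold lower there (10.5 to 14.5), at 18.4 against 227 CPM. The pair of basal-like clusters was itself split. In the cluster led by Atf3, Ccn1, Sbno2 and Dnajb1, stress-induced genes among them, Adm had 339 CPM against 13.1 CPM in the Frem2-led cluster, Hk2 had 142 against 28.4 CPM, Pfkfb3 had 44.3 against 16.9 CPM and Slc2a1 had 194 against 91.5 CPM. Limbal-like cells, at 18.4 CPM of Adm, were thus below the Atf3-led cluster but above the Frem2-led one. The 25.8-fold difference of Adm (22.7 to 29.4) between 2 clusters of 1 library exceeded its difference between libraries.

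**Figure D2:**
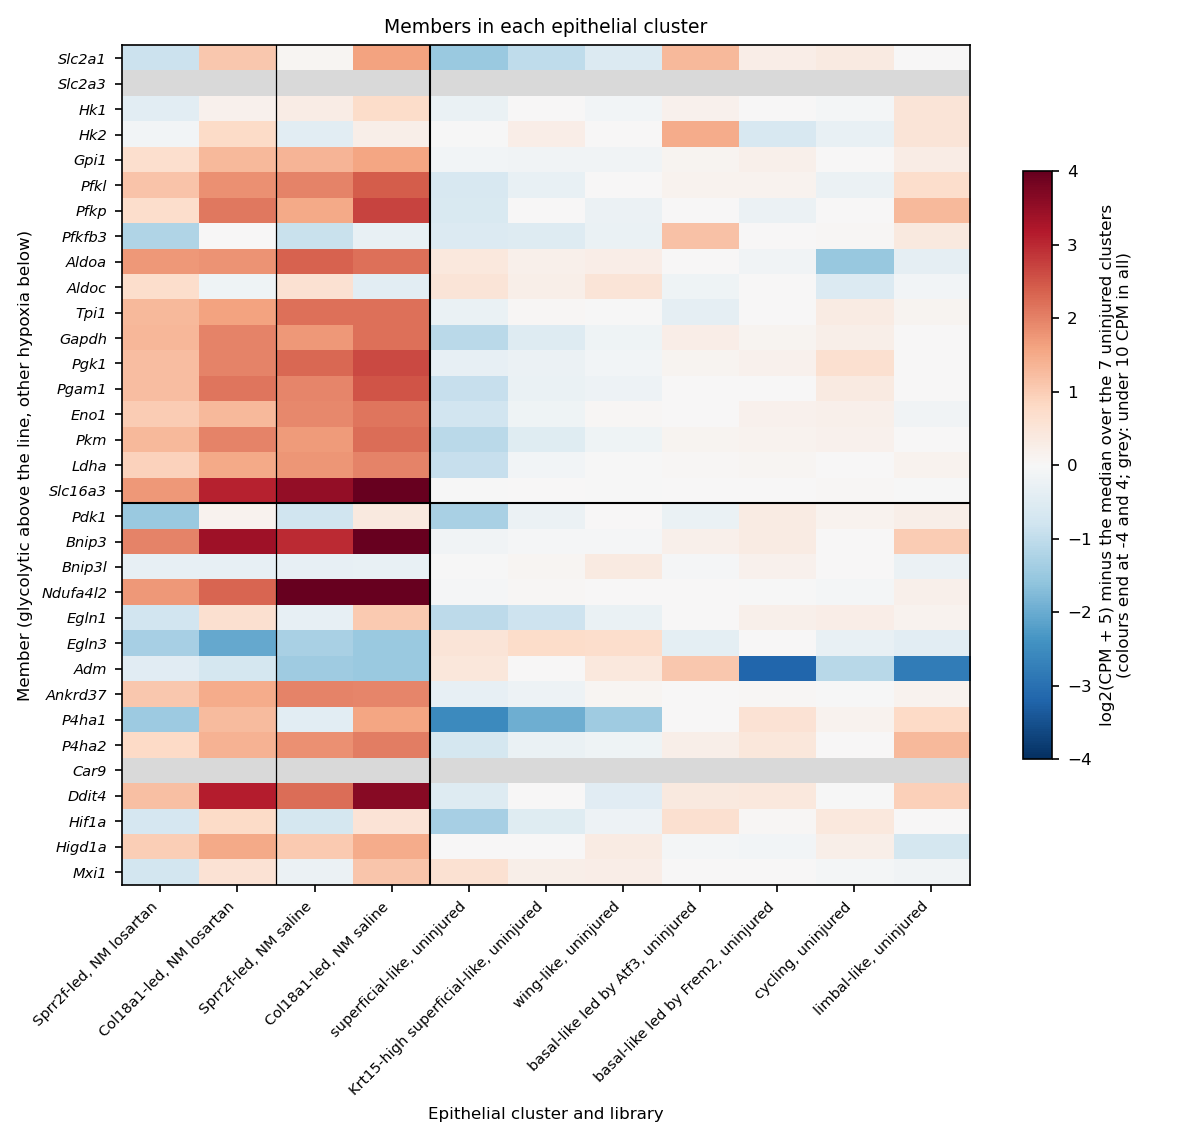
Members (rows) in the injured epithelial clusters of NM losartan and NM saline and in the 7 uninjured clusters (columns), as log2(CPM + 5) minus the median over the uninjured clusters, with grey for members under 10 CPM in every column. Slc16a3, Bnip3, Ndufa4l2 and Ddit4 are high in the injured columns, Egln3 is low there, and Adm separates the basal-like cluster led by Atf3 (339 CPM) from the one led by Frem2 (13.1 CPM).

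Other genes of the pathway are given by list for NM saline against uninjured epithelium, to be read against the 20.4% of all genes that were higher and the 16.6% that were lower. No difference between lists was tested. Of 22 measured genes on a list of other hypoxia targets and parts of the response, 12 were higher and 5 lower than in uninjured epithelium. Ero1l, an oxidase of protein folding, had 116 against 14.2 CPM, and Hmox1, the haem oxygenase, 58.7 against 5.26 CPM. Mgarp, a mitochondrial protein, was far lower, at 197 against 3969 CPM, and so was Epas1, the HIF-2 alpha subunit, at 9.54 against 178 CPM. Glycolytic isoforms and regulators had 4 of 6 higher and 1 lower, with Ldhb at 38.5 against 8.36 CPM, Pgm2 at 43.4 against 13.1 CPM and Pfkfb2 at 18.1 against 38.6 CPM. Of 22 measured genes of pyruvate entry and the citric acid cycle, 1 was higher (Mdh2, 325 against 162 CPM) and 6 lower, led by Mpc2, part of the mitochondrial pyruvate carrier, at 115 against 412 CPM. In the pentose phosphate branch 1 of 7 was higher and 2 lower, and Tkt, the transketolase that is abundant in normal cornea, stood at 283 against 5618 CPM. Of 5 glycogen genes 3 were lower, with Gyg, which primes glycogen, at 19.6 against 407 CPM and Pygl at 6.10 against 80.3 CPM.

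NM losartan epithelium had less of many of these transcripts than NM saline epithelium. Of 31 measured members 11 were lower and 1 higher, with a median log2 ratio of -0.47, beside 5.85% lower and 2.06% higher over all 8116 measured genes and a median of -0.08. Glycolytic members had 7 of 17 lower and none higher, and other hypoxia members 4 of 14 lower and 1 higher. Ndufa4l2 was 6.0-fold lower (5.61 to 6.44) and Slc16a3 2.87-fold lower (2.70 to 3.05). Eno1, Pgk1 and Tpi1 were 1.83, 1.72 and 1.69-fold lower, and P4ha2, Ankrd37, Bnip3, Pfkl, Ldha and Hk1 also passed 1.5-fold. Of these 11, all but Hk1 were above their uninjured level, Hk1 standing at 15.5 CPM in NM losartan and 16.9 CPM uninjured. Adm was the member that was higher, 1.89-fold (1.81 to 1.98). Of 21 other hypoxia genes 1 was higher (Mgarp, 762 CPM in NM losartan and 197 CPM in NM saline) and 5 were lower, Ero1l with 57.5 and 116 CPM among them. None of the 21 measured genes of pyruvate entry and the citric acid cycle passed 1.5-fold, and Tkt was higher, at 731 and 283 CPM.

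Both injured clusters showed this when taken alone, the Sprr2f-led one more widely. In the Sprr2f-led cluster 19 of 30 measured members were lower in NM losartan, beside 8.59% of all measured genes, and in the Col18a1-led cluster 8 of 31, beside 5.67%. Pgk1 had 195 CPM in NM losartan and 414 CPM in NM saline in the Sprr2f-led cluster, and 334 and 522 CPM in the Col18a1-led one. For Slc16a3 the values were 11.9 and 53.7 CPM in the Sprr2f-led cluster and 38.3 and 98.6 CPM in the Col18a1-led one. In either library the Col18a1-led cluster stood higher for both genes. A shallow cluster led by Krt90, which was not named, held 187 and 295 injured cells, and there Ndufa4l2 had 64.4 CPM in NM losartan and 194 CPM in NM saline. The members in that cluster did not share one direction: 5 of 32 were higher in NM losartan and 6 lower, with a median of -0.05. Of the 15 other hypoxia members 5 were higher and 4 lower. Over all 8237 genes measured there, 1150 were higher and 1260 lower, with a median of -0.01. The counts over all members are near that background and are not a result about the members. Glycolytic members took 0.866% of its UMIs in NM losartan and 1.03% in NM saline. Both shares exceeded those of the epithelial, stromal, macrophage, dendritic and neutrophil cells, the classes for which it was computed.

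Macrophage or monocyte-like cells of the injured libraries, 363 in NM losartan and 660 in NM saline, differed in the same direction. Of 30 measured members 10 were lower in NM losartan and none higher, against 4.79% lower over all measured genes, with medians of -0.52 for the members and 0.06 for all genes. Egln3 had 12.5 CPM in NM losartan and 67.7 CPM in NM saline, 5.43-fold lower (4.10 to 7.34). Pgk1 stood at 414 and 834 CPM, Slc2a1 at 61.6 and 127 CPM, and Gapdh at 1525 and 2408 CPM. Bnip3 (109 and 192 CPM), Bnip3l (117 and 205 CPM), Eno1 (262 and 507 CPM) and Gpi1 (194 and 331 CPM) were likewise lower, and P4ha2 was at 4.08 and 14.9 CPM. For Ndufa4l2, at 2.88 and 10.8 CPM, 1 cell in NM losartan and 4 cells in NM saline held 50% of the UMIs, and for P4ha2 in NM losartan 6 cells did. Hif1a, abundant in these cells, had 608 and 700 CPM and Hk2 103 and 88.9 CPM, both within 1.5-fold.

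Of the other hypoxia targets in macrophages, 5 of 20 measured were lower and none higher. Ero1l had 94.0 CPM in NM losartan and 398 CPM in NM saline. None of the 21 measured genes of pyruvate entry and the citric acid cycle passed 1.5-fold. Dendritic-like cells, 88 and 94 in number, had 13 of 29 members lower and none higher, against 8.38% of all genes lower. Egln3 had 4.09 CPM in NM losartan and 26.1 CPM in NM saline in dendritic-like cells, P4ha2 3.27 and 14.5 CPM and Hk1 19.6 and 47.6 CPM, all on few UMIs. The uninjured library held 11 macrophage-like cells, too few for a level.

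Neutrophils, which depend on glycolysis for energy, lay in 2 clusters that are compared separately because their leading genes differ. In the cluster led by Il23a, Ccl3 and Tnf, with 235 cells in NM losartan and 2029 in NM saline, 15 of 27 measured members were lower and none higher, beside 15.5% of all genes lower. Their median log2 ratio was -0.73, and that of all genes -0.11. Gapdh had 616 CPM in NM losartan and 1129 CPM in NM saline, Aldoa 148 and 340 CPM, Pgk1 105 and 236 CPM and Eno1 91.1 and 207 CPM. Ddit4 had 21.6 CPM in NM losartan, from 14 UMIs of which 3 cells held 50%, and 74.8 CPM in NM saline, and Bnip3 had 26.3 and 69.7 CPM, with 17 UMIs in NM losartan. NM losartan values here rest on a small class, so their intervals are wide: the Bnip3 fold of 2.66 has bounds of 1.64 and 4.59. Slc16a3 did not differ by the rule, at 127 and 126 CPM. Epithelial markers summed to 1682 CPM in NM losartan and 461 CPM in NM saline in this cluster, 3.46% and 1.20% of their epithelial level, and their part in the result was not tested.

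In the cluster led by Retnlg, with 1122 and 885 cells, 7 of 28 measured members were lower and 1 higher, beside 4.35% of all genes lower. The median was -0.40, and 0.24 over all measured genes. Pfkp, the platelet-type phosphofructokinase, had 101 CPM in NM losartan and 240 CPM in NM saline, 2.37-fold lower (2.08 to 2.72). Gapdh had 760 and 1312 CPM, Pgk1 184 and 298 CPM, Tpi1 43.8 and 88.0 CPM and Bnip3 59.2 and 98.7 CPM. Ankrd37 was higher, at 26.0 against 11.5 CPM. Slc2a3, the high-affinity glucose transporter, was at 33.9 CPM in NM losartan and 55.4 CPM in NM saline in this cluster and at 0.188 and 0.170 CPM in epithelium. Slc16a3 reached 393 and 378 CPM here, above its level in epithelium, stroma or macrophages. Epithelial markers summed to 1694 CPM in NM losartan and 422 CPM in NM saline in this cluster, 3.49% and 1.09% of their level in epithelium, and their part in the result was not tested.

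**Figure D3:**
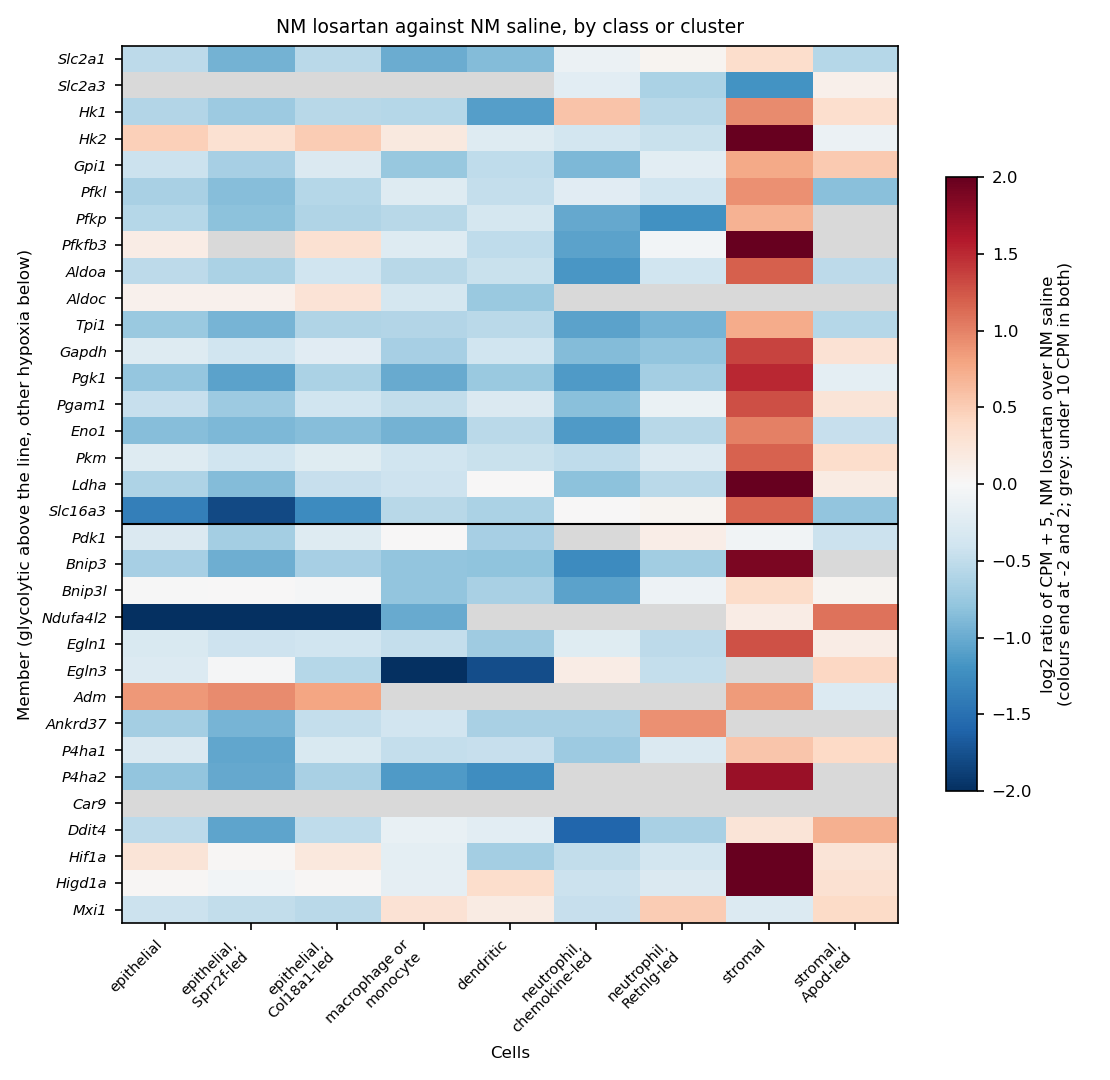
log2 ratio of CPM + 5, NM losartan over NM saline, for each member (rows) in each class or cluster (columns), with grey where both libraries were under 10 CPM. Blue, lower in NM losartan, runs through most glycolytic rows in epithelial, macrophage or monocyte, dendritic and neutrophil columns, while the whole stromal class is mostly red and its Apod-led cluster is mixed.

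Across epithelium, macrophages and both neutrophil clusters, 26 members were measured in all 4, and 16 of them had a ratio below 1 in all 4, 11 of them glycolytic. Of all 4478 genes measured in the 4 units, 8.33% had a ratio below 1 in each. Pgk1 and Bnip3 were the members past 1.5-fold lower in all 4, as were 0.112% of all genes (5). Tpi1, Gapdh and Eno1 passed it in 3 of the 4. Pkm and Egln1 were below 1 in all 4 and passed 1.5-fold in none. These comparisons share the same pair of libraries, so they are not independent of each other.

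Stromal fibroblast-like cells went against this pattern, and their make-up differed between libraries. Of 726 NM losartan cells 417 lay in an Mmp3-led cluster and 309 in an Apod-led cluster. Of 694 NM saline cells 16 were Mmp3-led and 677 Apod-led, and 313 of 421 uninjured cells lay in another cluster, led by Kera. The cluster called Apod-led had Gm29585, Gm49313 and Gm10827 at its top and Apod further down its 10 leading genes. None of those 10 counted as a stromal marker, though 10 stromal markers were detected in it. Its median depth was 2187 UMIs in NM losartan and 2753 in NM saline, against 25407 and 24924.5 in the Mmp3-led cluster. Over the whole class, 21 of 29 measured members were higher in NM losartan than in NM saline and 1 lower, beside 35.2% of all genes higher. Ldha had 898 CPM in NM losartan and 199 CPM in NM saline, Hk2 305 and 55.2 CPM, Pfkfb3 68.0 and 10.6 CPM, Hif1a 401 and 90.9 CPM and Higd1a 286 and 65.9 CPM. Slc2a3 was the member that was lower, at 1.86 and 10.6 CPM, with 4 cells holding 50% of the UMIs in each library. In the Apod-led cluster alone its log2 ratio was 0.11, on the other side. In NM saline 6 cells held 50% of the Ldha UMIs and 9 cells those of Pfkfb3.

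Within clusters the difference was lost for most members but not for all. In the Apod-led cluster 2 of 26 measured members were higher in NM losartan and 2 lower, beside 12.4% of all genes higher and 1974 of 8183 lower. Ldha there had 49.4 CPM in NM losartan and 43.6 CPM in NM saline, Pgk1 35.3 and 41.0 CPM, and Hif1a 57.8 and 47.8 CPM. In the Mmp3-led cluster, with 16 cells in NM saline, 5 of 30 measured members were higher in NM losartan and 4 lower. Over all 9421 genes measured there, 1124 were higher and 2862 lower. Its largest log2 ratios were 1.84 among glycolytic and 1.83 among other hypoxia members, with medians of -0.09 and 0.24. Ldha had 954 and 906 CPM in this cluster and Pgk1 346 and 433 CPM. These genes differed more between the clusters than between the injured libraries, with Mmp3-led cells the richer in both. Uninjured cells of the Mmp3-led cluster, 74 in number, stood lower: NM losartan cells had 954 CPM of Ldha, 346 CPM of Pgk1 and 1270 CPM of Gapdh, and uninjured cells 167, 58.5 and 163.5 CPM. Of 29 measured members 18 were higher in NM losartan than in uninjured cells of that cluster and 4 lower, beside 21.5% of all genes higher, the lower ones being Mxi1, Egln3, Hk1 and Pfkp.

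Against uninjured stroma, NM saline stroma had 7 of 29 measured members higher and 10 lower, beside 12.9% of all genes higher and 36.1% lower. The count of lower members is near that background and is not a result about the members. The median log2 ratio was -0.26 for the members and -0.39 for all measured genes. Gapdh had 471 CPM in NM saline and 242 CPM in uninjured stroma, Eno1 78.2 and 38.9 CPM, Ddit4 61.2 and 21.3 CPM, Adm 67.1 and 28.5 CPM and Slc16a3 16.6 and 2.66 CPM. Hk1 (18.7 and 64.0 CPM), Egln1 (38.2 and 97.8 CPM), P4ha2 (13.6 and 39.1 CPM), Ndufa4l2 (53.5 and 132 CPM) and Hk2 (55.2 and 132 CPM) were lower. In NM saline 9 cells held 50% of the Slc16a3 UMIs, against 6 in uninjured stroma, and 8 cells those of P4ha2. Over the whole class Adm was thus higher and Ndufa4l2 lower in NM saline stroma, the opposite of epithelium, but the NM saline class is mostly Apod-led and the uninjured one mostly Kera-led. Within the Mmp3-led cluster Ndufa4l2 turned direction, with 37.7 CPM in the 16 NM saline cells and 10.3 CPM in uninjured cells (log2 ratio 1.48). Adm did not, with 32.95 and 15.5 CPM. The NM saline and uninjured cells of this cluster held 424931 and 580873 UMIs in all, so these levels rest on few transcripts. Median depth in these cells was 10745 UMIs in NM losartan, 2774 in NM saline and 10157 in the uninjured library, and macrophage markers summed to 243 CPM in NM losartan, 1769 CPM in NM saline and 773 CPM in uninjured stroma. With cells thinned to 1500 UMIs, 4 members in place of 7 were higher in NM saline than in uninjured stroma, and 20 in place of 21 were higher in NM losartan than in NM saline. The part of the macrophage transcripts in the stromal result was not tested.

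Per cell, epithelium kept the same order. The median epithelial-like cell spent 0.456% of its UMIs on the glycolytic members in NM losartan and 0.618% in NM saline, against 0.173% in the uninjured library. In macrophages the medians were 0.493% and 0.782%, in chemokine-led neutrophils 0.202% and 0.350%, and in Retnlg-led neutrophils 0.322% and 0.467%, for NM losartan and NM saline. Apod-led stromal cells were level, at 0.102% in both injured libraries and 0.105% in the uninjured one. The quartiles overlapped between NM losartan and NM saline in each of these classes. For the other hypoxia members the epithelial medians were 0.104%, 0.109% and 0.117% in NM losartan, NM saline and uninjured cells.

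**Figure D4:**
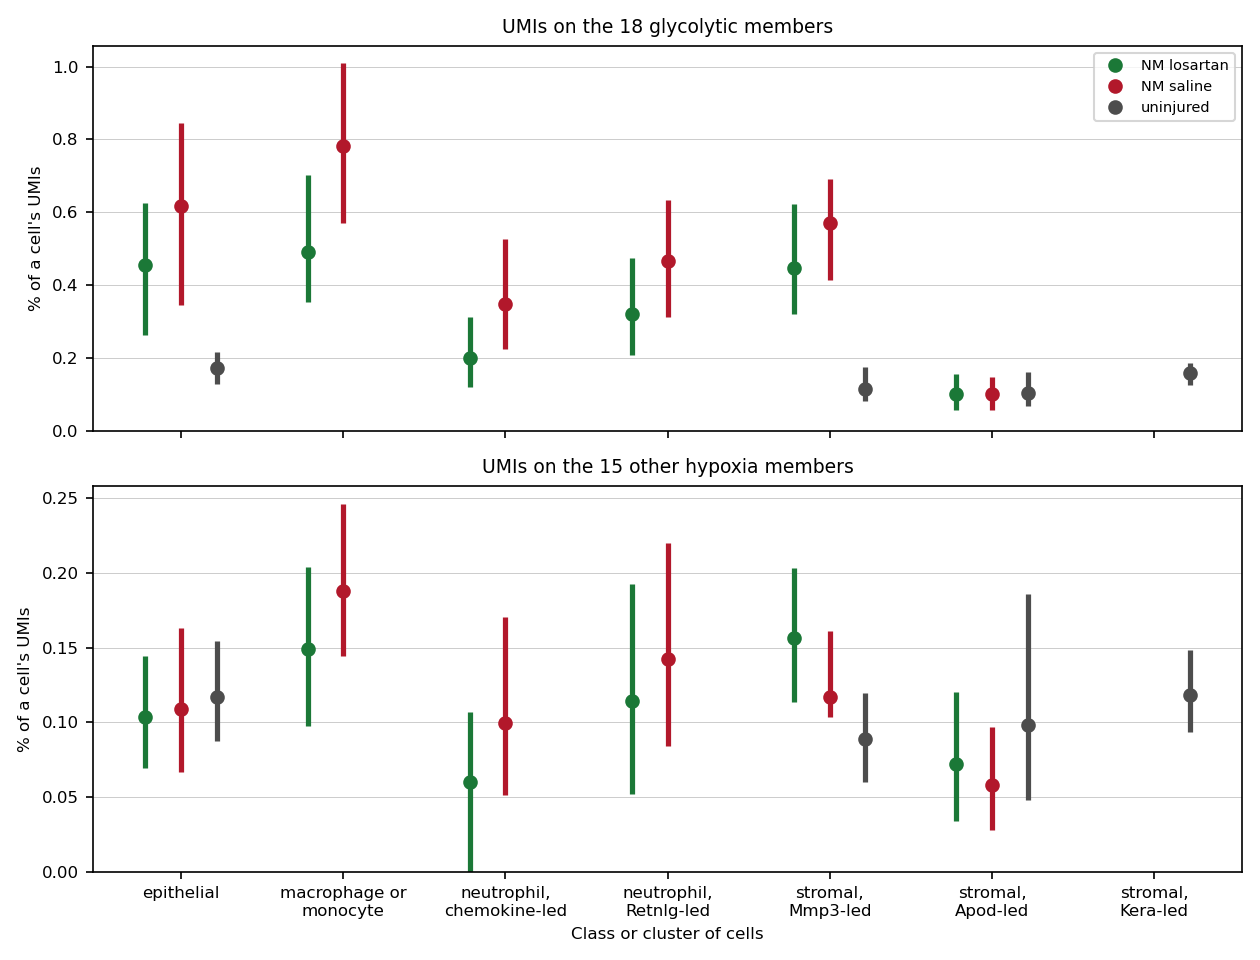
Percentage of a cell's UMIs on the glycolytic members (top) and the other hypoxia members (bottom), by class or cluster and library, with the median as a point and the quartiles as a bar over cells, which are not replicates. The epithelial median for glycolytic members is 0.456% in NM losartan, 0.618% in NM saline and 0.173% in the uninjured library, and libraries with fewer than 15 cells of a class are not drawn.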

How the data were processed

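Single-cell RNA was measured in 3 libraries, 1 per group. The deposited values are raw UMI counts per gene and cell barcode, which per the file headers the authors made with Cell Ranger 8.0.0, on GRCm38 per the submitters' processing notes. Cells with fewer than 500 genes or over 20% mitochondrial UMIs were left out, as were 243, 334 and 1334 doublets of NM losartan, NM saline and uninjured, called against 2 simulated doublets per cell at 0.800% per 1000 cells. Clusters (Leiden, resolution 0.800, 2000 variable genes, 30 components, 20 neighbours) were named from fixed markers. The scoring rules for names and layers were set after the clusters were seen, and the 33 members and the pathway lists were chosen with earlier results of these data known. Counts were summed per class and library and given as CPM with exact Poisson 95% intervals. Ratios carry exact binomial intervals. All 33 members are accounted for, and those named were up to 5 highest and 5 lowest per class and pair past 1.5-fold, members going opposite ways, and up to 2 per other list and direction. Others were named after their values were seen. No test between libraries was run, since no group had a replicate. The counting was tested on simulated data. Members' IDs matched GENCODE M21, and 5 share a strand with an overlapping gene (Slc2a1, Slc2a3, Pfkfb3, Pkm and Hif1a). The alternatives were other scaling, pseudocount, fold, filters, doublets, resolution, depth and clusters. Python 3.11.15, numpy 2.4.6, scipy 1.17.1, scikit-learn 1.9.0 and leidenalg 0.10.2 were used.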

Additional observations from a re-analysis of the deposited data

Results flagged for a closer look

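Some members lay on opposite sides in 2 classes of cells under the same contrast. Each value is a log2 ratio of CPM + 5 between 2 libraries, and the difference between classes was not tested.

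For NM saline against uninjured, Bnip3 stood at 3.421 in epithelial-like cells and -0.894 in stromal fibroblast-like cells, and Ndufa4l2 at 4.350 and -1.223. In the Mmp3-led stromal cluster alone Ndufa4l2 stood at 1.476, the same side as epithelium, but on few UMIs. Egln1 had 0.626 in epithelium and -1.250 in stroma, and P4ha2 1.809 and -1.247. Adm was the reverse, with -1.726 in epithelium and 1.106 in stroma. Over all measured genes 36.1% were lower in NM saline than in uninjured stroma, near the share of the members.

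For NM losartan against NM saline, the epithelial value was negative and the stromal one positive for 9 members. They were -0.588 and 0.951 for Hk1, -0.646 and 0.911 for Pfkl, -0.745 and 0.738 for Tpi1, -0.774 and 1.507 for Pgk1, and -0.853 and 1.004 for Eno1. Ldha had -0.613 and 2.143, Slc16a3 -1.361 and 1.168, Bnip3 -0.669 and 1.875, and P4ha2 -0.787 and 1.733.

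Macrophage or monocyte-like cells stood likewise against stroma. Gpi1 had -0.756 in macrophages and 0.758 in stroma, and Gapdh -0.657 and 1.355. The macrophage values were -1.001 for Pgk1, -0.938 for Eno1, -0.787 for Bnip3 and -1.129 for P4ha2, beside the stromal values above. NM saline stroma is mostly Apod-led (677 of 694 cells) and uninjured stroma mostly Kera-led (313 of 421). The stromal ratios of NM losartan to NM saline compare a class with 417 Mmp3-led cells in NM losartan with one that has 16 in NM saline.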

How the results depend on the processing

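Of 92 alternatives for the counts of members, 71 gave a count within 1.5 times the reported one. The 21 members higher in epithelium (NM saline against uninjured) ranged from 18 to 23 over 13 alternatives, and the 14 lower in superficial-like cells stayed at 14 in both alternatives. For each departure below the cause was not tested. At 2-fold in place of 1.5-fold, the counts lower in NM losartan were 2 in epithelium, 4 in macrophages, 9 in chemokine-led and 1 in Retnlg-led neutrophils, and 4 were higher in NM saline stroma than uninjured. Median-of-ratios scaling gave 14 lower for Retnlg-led neutrophils, 11 higher in NM saline stroma and 2 lower in NM losartan stroma. The strict cell filter gave 11 for Retnlg-led neutrophils and 11 for NM saline stroma, and keeping doublets gave 9 for chemokine-led neutrophils. Thinning to 1500 UMIs and per-cell means each gave 4 higher in NM saline stroma and 0 lower in NM losartan stroma. Thinning left out 4.70%, 10.5% and 3.96% of epithelial cells of NM losartan, NM saline and uninjured.

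Single clusters were tried after the data were seen. The Sprr2f-led cluster alone gave 19 lower in NM losartan, and a median of -0.116 for the other hypoxia members, NM saline against uninjured. For stroma, NM losartan against NM saline, the Apod-led cluster alone gave 2 higher and 2 lower and the Mmp3-led one 5 and 4, with glycolytic medians of -0.111 and -0.088. Of all genes measured in the Apod-led cluster (8183), 1015 were higher and 1974 lower, and in the Mmp3-led one (9421) 1124 and 2862. Apod-led values there were 0.108 for Slc2a3, -0.091 for Pfkfb3 and -0.111 for Hk2. NM saline against uninjured, the Mmp3-led cluster alone gave 18 higher of 29 measured members, beside 3649 higher of all 9923 measured genes. It gave a median of 0.203 for the other hypoxia members and 1.476 for Ndufa4l2, and the Apod-led cluster gave -0.116 for Slc2a3. At the lower clustering resolution the neutrophil clusters merged and gave no value. Depth limits small or shallow units, among them the 16 Mmp3-led cells of NM saline and the 235 chemokine-led neutrophils of NM losartan. No paired analysis was possible because each group has 1 library.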
